A study of Sus scrofa with 6 samples.

Results

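The miR-181 family of microRNAs (miRNAs) was measured in skin of Xiang pigs, a small breed of Sus scrofa from China, by sequencing small RNA. The members were taken by name, as every listed porcine miRNA whose stem is miR-181a, miR-181b, miR-181c or miR-181d, whatever the arm. This gave 4 of the 898 listed miRNAs, or 4 of the 280 with a miRBase-style name, namely ssc-miR-181a, ssc-miR-181b, ssc-miR-181c and ssc-miR-181d-5p. There were 6 libraries, of which S03, S04 and S05 were labelled black skin and S02, S06 and S07 white skin. All 6 were labelled as skin tissue of the Xiang strain, with no treatment other than a preservative and cold storage, and the labels used here state no age, sex, body site or animal. The p-values therefore measure the spread between these libraries, which may be technical. The stated purpose of the series is to find miRNAs and messenger RNAs that affect melanin formation.

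miRNAs are short RNAs that guide Argonaute proteins to complementary sites in messenger RNAs and lower their output. Pairing is set mainly by the seed near the 5′ end, which the miR-181 members share, so they can act on many of the same messages. The mature forms differ at only a few bases outside the seed. In mouse, miR-181a is known for setting the sensitivity of developing T cells to antigen, and miR-181b is known for restraining NF-κB signalling in vascular endothelium by targeting an importin.

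The family is made at 3 places in the pig genome. In build Sscrofa11.1, MIR181A-2 lies on chromosome 1 at 265497249 to 265497328 and MIR181B-2 at 265499111 to 265499196, both within the span of NR6A1, an orphan nuclear receptor gene. MIR181B-1 lies on chromosome 10 at 21696492 to 21696571 and MIR181A-1 at 21696653 to 21696756, within the span of the predicted gene LOC110255652. The nearest coding gene before this place is PTPRC, which encodes the leukocyte antigen CD45. MIR181D lies on chromosome 2 at 65279773 to 65279852 and MIR181C at 65279950 to 65280036, 97 bases apart and inside no other annotated gene. The annotation used gives gene spans and does not separate exons from introns. Each of miR-181a and miR-181b has precursors on chromosomes 1 and 10, and the table gives 1 value for each, so reads could not be assigned to a place. miR-181c and miR-181d each have a single listed precursor.

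The libraries held between 6454685 and 10165949 miRNA reads. Values are RPM, reads scaled to a total of 1e+06 in each library, in which 1 read was worth 0.0984 to 0.155 RPM. ssc-miR-205, an epithelial miRNA known from keratinocytes, averaged 14237 ± 2596 RPM in black skin, against 19830 ± 4277 RPM in white skin (n = 3 each, SD), while the keratinocyte miRNA miR-203 was not among those listed here. Of the 454 miRNAs with enough reads to test, the adjusted p was below 0.05 for 32 (7.05%), and 124 (27.3%) had groups that did not overlap. The test was limma on log2(RPM + 1), black minus white, and p-values were adjusted by Benjamini-Hochberg across the 454. Among the libraries S02 stood apart from the other white ones, at 9.24 on the second principal component of the 454 miRNAs (20.3% of the variance), against -2.77 for S06 and -6.10 for S07, so values without it are given for each member. All 4 members were among the 454.

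The members did not move together. ssc-miR-181b fell in black skin, ssc-miR-181c was higher there by about as much but missed the threshold, and ssc-miR-181a and ssc-miR-181d-5p differed less and overlapped between the groups. The count was 1 called member of 4, lower in black skin, where 3.08% of all tested miRNAs were called lower and 3.96% higher. For 2 of the 4 the groups did not overlap, 1 lower and 1 higher in black skin, where 13.9% and 13.4% of all tested miRNAs did so. The median difference of the 4 was -0.30, against 0.0022 over all tested miRNAs, with 1 member above 0 and 3 below.

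**Figure D1:**
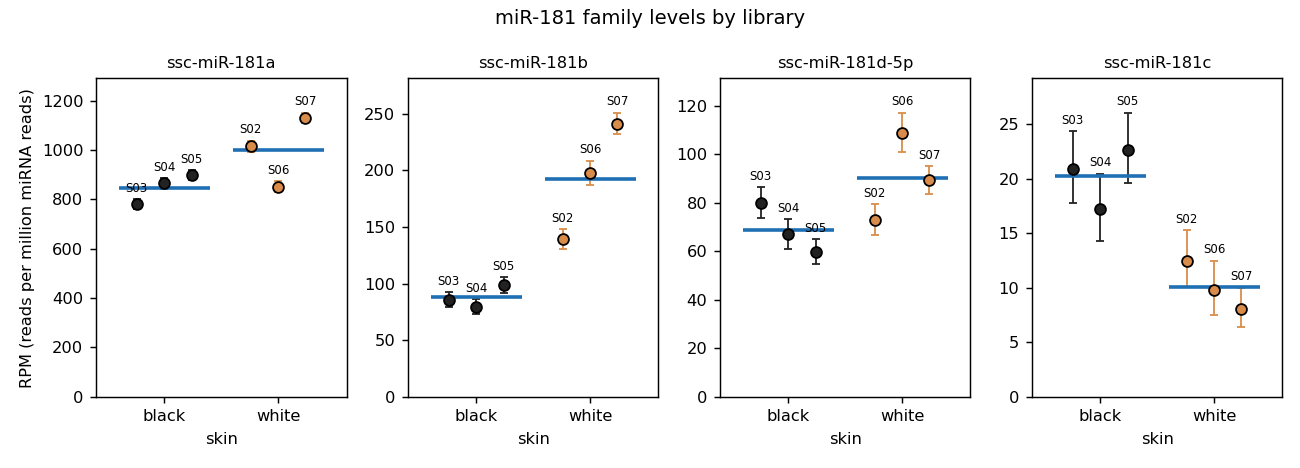
RPM of each miR-181 member in each library, with a panel and a linear axis from 0 for each member. Points are libraries from black (left) and white skin (right), vertical bars are 95% Poisson counting intervals and blue lines are group means. ssc-miR-181b lies at 79.6 to 98.5 RPM in black skin and 139 to 241 RPM in white skin, ssc-miR-181c runs the other way, and the other 2 members overlap.

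ssc-miR-181a was the most abundant member. Its values were 780.9, 864.9 and 897.6 RPM in S03, S04 and S05 (black), against 1015, 851.6 and 1131 RPM in S02, S06 and S07 (white). The white library S06 lay among the black ones, so the groups overlapped. The means were 848 ± 60.2 RPM in black skin, against 999.5 ± 141 RPM in white skin (n = 3, SD), a difference of -0.23 with a 95% interval of -0.64 to 0.18 on the log2(RPM + 1) scale (limma, adjusted p = 0.494), and of -0.21 without S02.

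ssc-miR-181b, made beside miR-181a at both of its places, was the member that passed the test. Its values were 85.3, 79.6 and 98.5 RPM in S03, S04 and S05 (black), against 139, 197 and 241 RPM in S02, S06 and S07 (white). Every black library lay below every white one, and S02 was the white library closest to the black ones. The means were 87.8 ± 9.68 RPM in black skin, against 193 ± 51.2 RPM in white skin (n = 3, SD), a 2.19-fold lower level in black skin. The log2 difference was -1.09 with a standard error of 0.25 and a 95% interval of -1.66 to -0.52 (limma, adjusted p = 0.0329), and 14 of the 454 tested miRNAs had a lower value. The call was kept without S02 (adjusted p = 0.0147). It was lost without S03 (0.109), S04 (0.0891), S05 (0.0997), S06 (0.116) or S07 (0.0929), with the difference between -1.31 and -0.91 over these 6 fits. It was also lost with upper-quartile scaling (limma, adjusted p = 0.0555), with no filter on low counts (0.0501) and with no intensity trend (0.0609).

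ssc-miR-181d-5p comes from chromosome 2 with miR-181c. Its values were 80.0, 67.0 and 59.7 RPM in S03, S04 and S05 (black), against 72.9, 109 and 89.3 RPM in S02, S06 and S07 (white). S03 lay above S02, so the groups overlapped. The means were 68.9 ± 10.3 RPM in black skin, against 90.4 ± 18.0 RPM in white skin (n = 3, SD). The log2 difference of -0.38 had a 95% interval of -0.93 to 0.18 (limma, adjusted p = 0.390), and was -0.52 without S02 (adjusted p = 0.210). Leaving out each library in turn gave differences of -0.52 to -0.24 (limma, adjusted p = 0.210 to 0.690).

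ssc-miR-181c was the scarcest member and the only one with a higher level in black skin. Its values were 20.9, 17.2 and 22.7 RPM in S03, S04 and S05 (black), against 12.5, 9.76 and 8.07 RPM in S02, S06 and S07 (white). Every black library lay above every white one, and S02 was again the white library closest to the black ones. The means were 20.3 ± 2.80 RPM in black skin, against 10.1 ± 2.22 RPM in white skin (n = 3, SD), a 2.01-fold higher level. The log2 difference of 0.95 had a standard error of 0.29 and a 95% interval of 0.29 to 1.61, and it missed the threshold over all miRNAs (limma, adjusted p = 0.0916). With DESeq2 on the recovered reads, which called 11.7% of the tested miRNAs, it passed (adjusted p = 0.0431), and with edgeR it did not (adjusted p = 0.0961). Without S02 the difference was 1.10 (limma, adjusted p = 0.0628). Leaving out each library in turn gave differences of 0.81 to 1.10 (limma, adjusted p = 0.0628 to 0.261), none of which passed. A pseudocount of 10 gave 0.59 in place of 0.95, the log2(RPM + pseudocount) scale understating changes of scarce miRNAs.

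**Figure D2:**
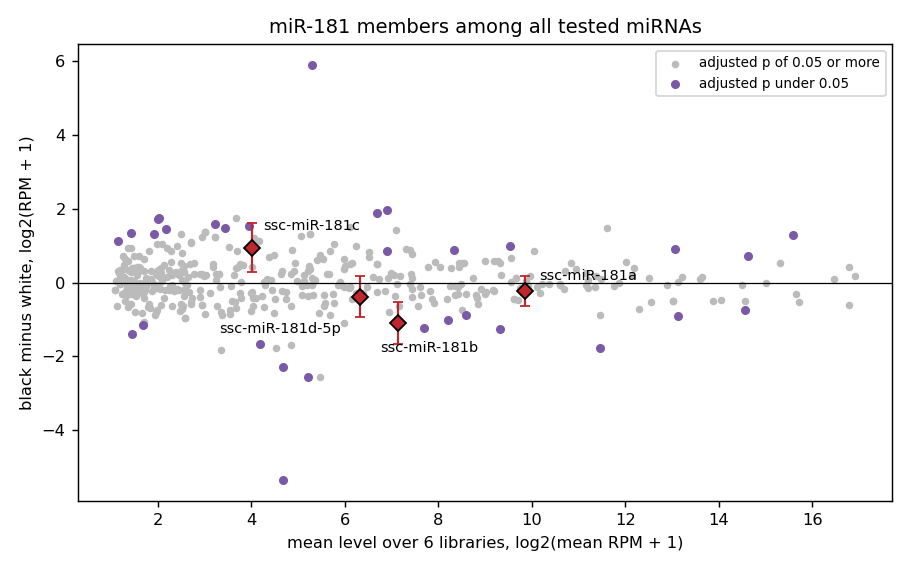
Difference between black and white skin, in log2(RPM + 1), against the mean level over 6 libraries for the 454 tested miRNAs. Purple points passed an adjusted p of 0.05, red diamonds are the miR-181 members with 95% intervals; the interval of ssc-miR-181b lies below 0, that of ssc-miR-181c above 0, and those of the other 2 members span 0.

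Reads behind these values differed widely. ssc-miR-181c rested on 126 to 196 reads in each black library and on 63 to 91 in each white library, and ssc-miR-181a on 6049 to 7762 reads in each black library and on 5497 to 11502 in each white library. For ssc-miR-181c the coefficient of variation between libraries was 13.8% in black and 22.0% in white skin, where counting alone gives 7.87% in black and 11.3% in white skin. The counting value was thus 57.0% of the coefficient of variation in black and 51.3% in white skin for ssc-miR-181c. For ssc-miR-181b it was 34.3% in black and 9.46% in white skin. PCR copies molecules before sequencing, so such counting figures leave that step's error out.

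The order of the levels was the same in all 6 libraries, with ssc-miR-181a first, then ssc-miR-181b, ssc-miR-181d-5p and ssc-miR-181c. ssc-miR-181a made up 82.7 ± 1.74% of the family's reads in black and 77.3 ± 4.49% in white skin (n = 3, SD). The share of ssc-miR-181b was 8.57 ± 0.731% in black and 14.8 ± 3.15% in white skin, and that of ssc-miR-181c 1.98 ± 0.268% in black and 0.797 ± 0.231% in white skin (n = 3, SD). ssc-miR-181d-5p held 6.77 ± 1.39% in black and 7.09 ± 1.94% in white skin (n = 3, SD). ssc-miR-181b and ssc-miR-181d-5p, neighbours in this order, were closest in black skin, where S03 had 1.07 times as much ssc-miR-181b as ssc-miR-181d-5p, and the mean levels of 87.8 and 68.9 RPM there differed by less than the sum of their SDs. Levels are read shares, in which 1 read stands for 1 mature miRNA and is not divided by length, and how well each sequence was captured in the library step was not tested.

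The summed family was lower in black skin. It came to 967.2, 1029 and 1078 RPM in S03, S04 and S05 (black), against 1240, 1168 and 1470 RPM in S02, S06 and S07 (white). The groups did not overlap, and the means were 1025 ± 55.7 RPM in black skin, against 1293 ± 158 RPM in white skin (n = 3, SD). This is 0.102 ± 0.00557% of the miRNA reads in black and 0.129 ± 0.0158% in white skin. Of the difference of -268 RPM between the means, ssc-miR-181a accounted for -152 RPM and ssc-miR-181b for -105 RPM. In RNA of whole skin, fewer cells of a type and less RNA per cell cannot be told apart.

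Ratios of RPM between members within a library do not depend on how the library was scaled. All 6 pairs were compared as log2 ratios of (RPM + 1), which do depend on it through the added 1, most for the scarce ssc-miR-181c. The 2 members from neighbouring precursors on chromosome 2 gave differences of opposite sign. The level of ssc-miR-181c was 0.261, 0.257 and 0.380 times that of ssc-miR-181d-5p in S03, S04 and S05 (black), against 0.171, 0.0896 and 0.0903 times in S02, S06 and S07 (white). The log2 ratio of ssc-miR-181c to ssc-miR-181d-5p was -1.72 ± 0.31 in black and -3.04 ± 0.51 in white skin (n = 3, SD), a difference of 1.33 with no overlap. A two-sided exact permutation test gave p = 0.1, which is as low as 3 libraries per group can reach, and 0.12 after adjustment over the 6 pairs. With a pseudocount of 10 in place of 1 the difference was 0.93, and with 0.1 it was 1.39.

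miR-181a and miR-181b share their places on chromosomes 1 and 10. ssc-miR-181a exceeded ssc-miR-181b 9.15-fold, 10.9-fold and 9.11-fold in S03, S04 and S05 (black), against 7.30-fold, 4.31-fold and 4.69-fold in S02, S06 and S07 (white). The log2 ratio of ssc-miR-181b to ssc-miR-181a was -3.26 ± 0.14 in black and -2.40 ± 0.41 in white skin (n = 3, SD), a difference of -0.86 (exact permutation p = 0.1, adjusted 0.12). In both pairs S02 was the white library nearest to black skin, and without it the differences were 1.62 for ssc-miR-181c to ssc-miR-181d-5p and -1.09 for ssc-miR-181b to ssc-miR-181a. These were the largest on leaving out 1 library. Without any other library they were 1.15 to 1.42 for ssc-miR-181c to ssc-miR-181d-5p and -0.91 to -0.72 for ssc-miR-181b to ssc-miR-181a.

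Of the 6 pairs, the ratio of ssc-miR-181c to ssc-miR-181b had the largest difference. Its log2 value was -2.07 ± 0.09 in black and -4.11 ± 0.68 in white skin (n = 3, SD), a difference of 2.04. With a pseudocount of 10 this difference was 1.61, and with 0.1 it was 2.11. ssc-miR-181b exceeded ssc-miR-181c 4.08-fold to 4.63-fold in black and 11.2-fold to 29.9-fold in white skin. The ratio of ssc-miR-181c to ssc-miR-181a differed by 1.18, and that of ssc-miR-181b to ssc-miR-181d-5p by -0.72, both with no overlap (exact permutation p = 0.1, adjusted 0.12). The ratio of ssc-miR-181d-5p to ssc-miR-181a overlapped and differed by -0.15 (exact permutation p = 0.6), with a 95% limma interval of -0.87 to 0.57. Without S06 its difference was 0.11, with the sign turned.

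**Figure D3:**
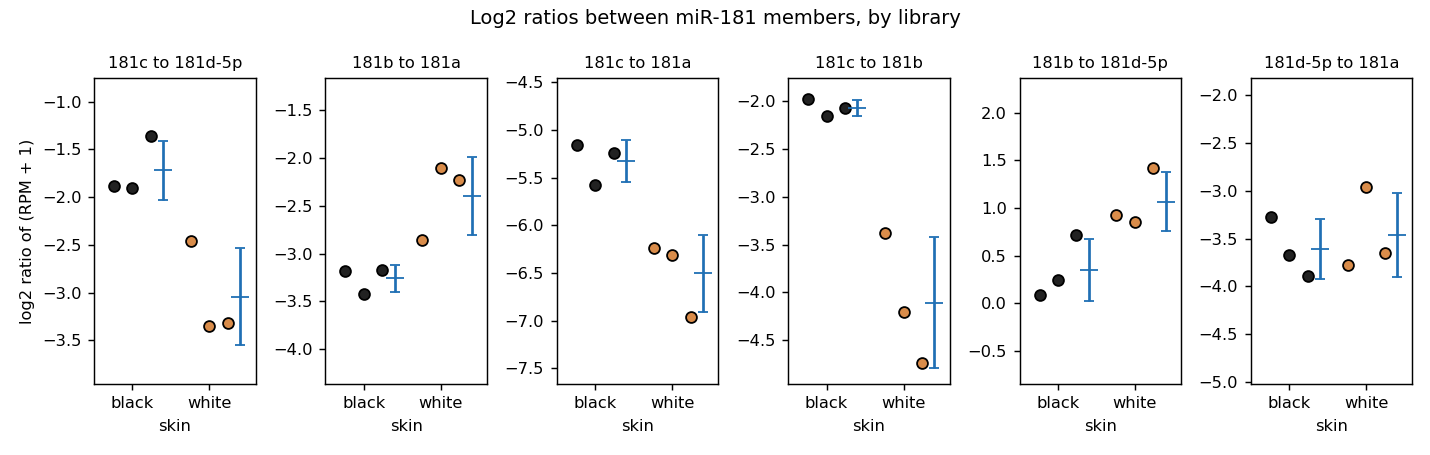
Log2 ratio of (RPM + 1) between each pair of miR-181 members, with 1 panel per pair and axes of equal span. Points are libraries from black (left) and white skin (right), and blue bars are the mean and SD of 3 libraries. In 5 pairs the groups do not overlap, and in the ratio of ssc-miR-181d-5p to ssc-miR-181a they do. Each of those 5 pairs holds ssc-miR-181b or ssc-miR-181c, whose own groups did not overlap, so the pairs are not separate observations.

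Since the exact test cannot pass 0.05 here, the ratios of every other tested miRNA to each member in turn were also fitted with limma and adjusted over the 453 ratios, a test chosen after the data were seen. Each pair has 2 such p-values, one for each choice of denominator. A denominator that itself differs between the groups shifts all 453 of its ratios. How many of the 453 passed was not counted. With ssc-miR-181b as denominator, limma's p of 0.0206 for ssc-miR-181a became 0.0376 on adjustment. So small a change occurs only where most of the 453 ratios pass. A pass is therefore not particular to a pair of members. The ratio of ssc-miR-181c to ssc-miR-181b passed both ways (limma, adjusted p = 0.00132 and 0.000519), as did that of ssc-miR-181c to ssc-miR-181a (0.0477 and 0.00403). The ratio of ssc-miR-181c to ssc-miR-181d-5p passed one way only (limma, adjusted p = 0.0582 and 0.00605; wider 95% interval 0.41 to 2.24), and so did that of ssc-miR-181b to ssc-miR-181a (0.0628 and 0.0376; -1.58 to -0.15). The ratio of ssc-miR-181b to ssc-miR-181d-5p did not pass (limma, adjusted p = 0.247 and 0.0984).

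Beyond miR-181c on chromosome 2 lies the cluster of MIR23A, MIR27A and MIR24-1, which starts 28080 bases after MIR181C. Its products were looked at after their values were known. ssc-miR-27a rose to 11228 ± 2880 RPM in black skin, against 5851 ± 790 RPM in white skin (n = 3, SD; log2 difference 0.92, limma, adjusted p = 0.0324), and ssc-miR-23a averaged 7389 ± 319 RPM in black skin, against 7762 ± 656 RPM in white skin (n = 3, SD; -0.07, adjusted p = 0.821). The other products gave 0.40 for ssc-miR-24-1-5p (limma, adjusted p = 0.347) and 0.55 for ssc-miR-24-3p (adjusted p = 0.106), which can also come from another miR-24 precursor. ssc-miR-24-2-5p, named for another precursor, measured 153 ± 15.8 RPM in black skin, against 84.1 ± 10.7 RPM in white skin (n = 3, SD). Its log2 difference was 0.86 (limma, adjusted p = 0.0423). Which precursor the reads of ssc-miR-24-3p came from was not tested.

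The miRNAs with profiles most like those of the members were found by the root mean square difference of log2(RPM + 1) over 6 libraries, each profile centred on its own mean, among 238 named miRNAs outside the family. For ssc-miR-181a these were ssc-miR-574 (0.08), ssc-let-7f (0.12) and ssc-let-7g (0.12), where the median of the 238 was 0.36. For ssc-miR-181b they were ssc-miR-221-3p, ssc-miR-214 and ssc-miR-9841-3p, at 0.21, 0.22 and 0.22, where the median was 0.68. These are closer to ssc-miR-181b than any member of its family, of which ssc-miR-181d-5p was nearest at 0.44, and ssc-miR-181c farthest at 1.10. The 238 candidates gave far more chances of a close profile than the other 3 members did, and ssc-miR-181d-5p lay below the median of 0.68. Likeness was taken over the same 6 libraries, so miRNAs near ssc-miR-181b were picked partly for a like difference between the groups. Their differences are thus no separate result. ssc-miR-221-3p, the miRNA named in the title of the series, measured 374 ± 46.0 RPM in black skin, against 912 ± 272 RPM in white skin (n = 3, SD; log2 difference -1.24, limma, adjusted p = 0.0318). ssc-miR-214, a mesenchymal miRNA, measured 269 ± 42.1 RPM in black skin, against 497 ± 88.0 RPM in white skin (n = 3, SD; -0.88, adjusted p = 0.0408), and ssc-miR-9841-3p 10.8 ± 0.756 RPM in black skin, against 19.1 ± 2.83 RPM in white skin (n = 3, SD; -0.76, adjusted p = 0.134).

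miRNAs of cell types in which the family is known were set beside it. Of 6 leukocyte miRNAs tested 1 rose and 0 fell (median 0.01), and their summed level was 1573 to 2339 RPM in black skin and 1287 to 2484 RPM in white skin. The one that rose was ssc-miR-142-3p, a miRNA of blood cells, at 190 ± 78.5 RPM in black skin, against 49.1 ± 24.2 RPM in white skin (n = 3, SD; 1.96, limma, adjusted p = 0.0324), while ssc-miR-146b, the most abundant, gave -0.48 (adjusted p = 0.271). miR-223, a myeloid miRNA, was not among those listed here.

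Of 6 vascular wall miRNAs tested 3 rose and 0 fell (median 0.65), and their summed level of 96227 to 119952 RPM in black skin lay above that of 44365 to 58091 RPM in white skin. Those that rose were ssc-miR-143-3p of smooth muscle (1.29, limma, adjusted p = 0.00314) and the endothelial ssc-miR-126-3p (0.71, adjusted p = 0.0423) and ssc-miR-126-5p (0.89, adjusted p = 0.0423). Of 9 NF-κB-linked miRNAs tested, a list that shares miR-126 with the vascular wall and miR-146b with the leukocytes, 2 rose and 2 fell (median 0.19). Those that fell were ssc-miR-10a-5p (-1.78, limma, adjusted p = 0.000371) and ssc-miR-10a-3p (-1.67, adjusted p = 0.0171), those that rose were the arms of miR-126, and ssc-miR-21, the most abundant, gave 0.19 (adjusted p = 0.730). The summed NF-κB-linked level, carried mostly by ssc-miR-21, was 137169 to 194889 RPM in black skin and 118115 to 195944 RPM in white skin.

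In the other lists the summed levels overlapped between the groups. Of 5 melanocyte miRNAs tested 1 fell (ssc-miR-221-3p, above), and the median was -0.37. Their summed level was 2908 to 4611 RPM in black skin and 3308 to 5157 RPM in white skin. ssc-miR-146a-5p was the most abundant (0.19, limma, adjusted p = 0.744). The others were ssc-miR-221-5p (-0.37, limma, adjusted p = 0.310), ssc-miR-222 (-0.73, adjusted p = 0.152) and ssc-miR-204, which went the other way (0.82, adjusted p = 0.0804). miR-211 and miR-137 were not among those listed here. Of 8 mesenchymal miRNAs 1 fell (ssc-miR-214; median -0.13), with sums of 68843 to 89342 RPM in black skin and 72574 to 96951 RPM in white skin and ssc-miR-99a leading (-0.01, adjusted p = 0.971). None of 6 epithelial miRNAs was called (median -0.30, sums of 18746 to 25758 RPM in black skin and 23485 to 34659 RPM in white skin), with ssc-miR-205 at -0.47 (adjusted p = 0.204). The epithelial miR-200a, miR-200b, miR-200c, miR-141 and miR-203 were not among those listed here. None of 6 striated muscle miRNAs was called (median 0.08, sums of 966.9 to 1633 RPM in black skin and 715.1 to 2069 RPM in white skin), with ssc-miR-1 at -0.12 (adjusted p = 0.911). None of 6 neural miRNAs was called (median -0.10, sums of 1099 to 1806 RPM in black skin and 1225 to 1792 RPM in white skin), with ssc-miR-7 at -0.05 (adjusted p = 0.924). ssc-miR-9 and ssc-miR-9-1 had the same fit, and both are counted here. The list did not match by name ssc-miR-129a-3p (1.32, limma, adjusted p = 0.119), ssc-miR-129a-5p (0.85, adjusted p = 0.200) or ssc-miR-219a (-0.19, adjusted p = 0.730). The part of these cell types in the differences of the miR-181 members was not tested.

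**Figure D4:**
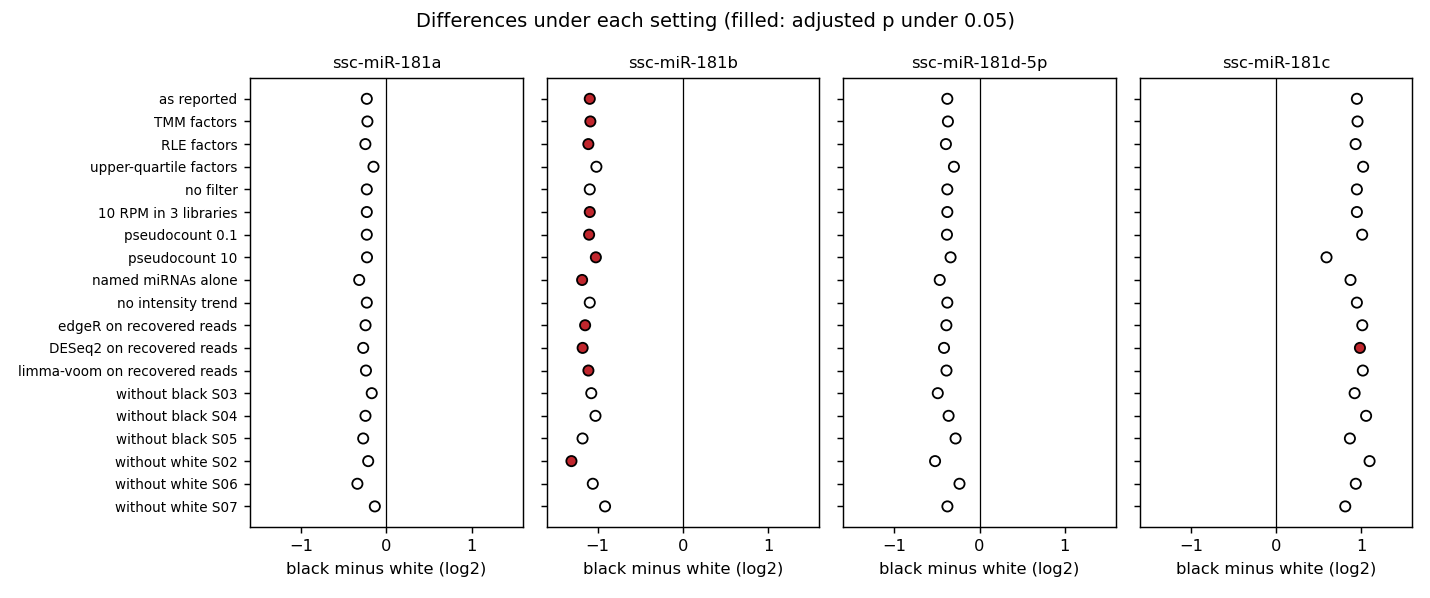
Difference between black and white skin (log2) of each miR-181 member as reported and under 18 alternatives, each on its own line. Filled points passed an adjusted p of 0.05; every value of ssc-miR-181a, ssc-miR-181b and ssc-miR-181d-5p lies below 0 and every value of ssc-miR-181c above 0, and ssc-miR-181c is filled under DESeq2 alone.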

How the data were processed

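The deposited table holds RPM made by the authors: its 6 columns of values each sum to 1e+06, from which the unit was read. Per the submitters' processing notes, Bowtie (version and role unstated) and Sscrofa11.1 were used. How miRNAs were counted, from which database and with what filters is not given in the sources used here. Dividing by the worth of 1 read gave whole numbers for 100% of values (tolerance 0.001), and these were taken as reads. No row equalled a member's, but family members with near-identical sequences can exchange reads. No 2 libraries were duplicates (smallest chi-square per degree of freedom 249).

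miRNAs were kept with edgeR 4.0.16's filterByExpr (minimum count 10, minimum total 15) and tested on log2(RPM + 1) with limma 3.58.1 (R 4.3.3, trended prior variance, threshold 0.05). edgeR, DESeq2 1.42.0 and limma-voom on recovered reads, with their own scaling, were alternatives, and without a library the filter was applied again. Summed levels got no test, and no member had both arms listed, so arm ratios were not computed. Precursor positions are those of RefSeq's annotation of Sscrofa11.1.

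The members and lists were chosen with earlier results of these data known. All members were named. Also named were the 3 miRNAs most like the most abundant member and like each called member. In each list the most abundant member and up to 3 called ones were named. The miR-23a cluster and the names of miRNAs not listed were added after values were seen. So were the remaining melanocyte miRNAs, listed miRNAs with the same fit, and neural miRNAs that the list did not match.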

Additional observations from a re-analysis of the deposited data

How the results depend on the processing

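Each member kept its direction under all 18 alternatives, and the ratios of 5 of the 6 pairs did so under all of theirs. Part of this was fixed in advance. Where groups do not overlap, as for ssc-miR-181b, ssc-miR-181c and those 5 pairs, leaving out a library cannot turn the sign. Changing the filter or dropping the intensity trend leaves a member's difference as it was, and the limma fit of ratios keeps the reported difference. The number of called miRNAs was 32 as reported, 19 with limma without an intensity trend, 53 with DESeq2 and 7 to 41 on leaving out 1 library. The number of called members was 1 as reported, 2 with DESeq2 and 0 to 1 on leaving out 1 library. It was 0 in limma with upper-quartile factors, no filter or no trend, where 2 members had an unadjusted p under 0.05. In the reported limma fit 116 of the 454 tested miRNAs had an unadjusted p under 0.05, and the number under these alternatives was not counted. edgeR, run with its own scaling and the reported filter, called 1. The ratio of ssc-miR-181d-5p to ssc-miR-181a ranged from -0.32 to 0.11 without 1 library, the last without S06. In the limma fit of ratios, the differences of 1.18 (ssc-miR-181c to ssc-miR-181a) and 2.04 (ssc-miR-181c to ssc-miR-181b) passed 0.05 with either denominator. Such a pass is not particular to a pair of members. When RPM were rescaled to named miRNAs alone, the difference in the summed family was -394.6 RPM in place of -268 RPM. It was -212 RPM with upper-quartile factors and -179 RPM without S07, the smallest size under any alternative. Rescaling to named miRNAs alone put the median of all tested at -0.14, and relative to it ssc-miR-181b was at -1.05 and ssc-miR-181c at 1.01. The cause of these shifts was not tested. Leaving out a library leaves 2 in its group. Depth limits ssc-miR-181c most, since 63 to 91 reads stood behind its white values.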
